A study of Mus musculus with 9 samples.

Results

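SV40-MES-13 is a mouse kidney line made from a mouse carrying the early region of simian virus 40 (SV40), whose T antigens keep the cells dividing. The labels call the cells renal mesangial cells. Described here is the poly(A) RNA of cells that carried an empty pLL3.7 lentiviral vector (EV) and no Drosha shRNA, labelled wild type, in 2 libraries of 9 samples in the series. They were chosen by their group label alone, and no value was used. The cells were grown in a 3 to 1 mix of high glucose DMEM and F-12 with 5% serum. The other libraries carry the shRNAs sh5 or sh7 or hold small RNA, and they are not compared here. Nothing in the labels says that the EV libraries came from separate cultures, so they may not be independent. The source of their spread was not tested. The line is immortalised, and the EV cells differ from the parental line by the vector, so they are controls and not untreated cells.

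Mesangial cells are the contractile, pericyte-like cells that hold together the capillary loops of the kidney's filtering unit, the glomerulus. They answer angiotensin II, endothelin and platelet-derived growth factor (PDGF), lay down matrix rich in collagen IV and fibronectin, and release chemokines when inflamed. Their usual markers include the PDGF receptor Pdgfrb, the integrin Itga8, the transcription factor Gata3 and smooth muscle actin, Acta2.

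Levels are in TPM, transcript abundances that are scaled for gene length and sum to 1000000 in each library. In every pair of values below EV replicate 1 comes first and EV replicate 2 second. Of 55357 rows, 11959 were at or above 1 TPM in both libraries, 8169 at or above 10 TPM, 1663 at or above 100 TPM and 137 at or above 1000 TPM. A total of 31943 rows were listed at 0 in both. TPM keep no read depth, so a level near 0 has no detection limit attached, and an exact 0 is given only as listed at 0. Among RefSeq protein-coding genes 10892 of 19745, or 55.2%, had a mean of at least 1 TPM, and 40.9% had a mean of at least 10 TPM. Every count of list members at 1 TPM or more below is to be read against these shares.

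The label was checked against lineage genes first. Of 24 mesangial and pericyte markers, 5 reached a mean of 1 TPM, fewer than the 55.2% of protein-coding genes would give. These were Fhl2, a LIM-domain cofactor, at 30.2 and 38.2 TPM, the nuclear receptor Nr2f2 at 12.8 and 12.5 TPM, the adhesion molecule Mcam at 7.29 and 6.45 TPM, the stromal factor Foxd1 at 2.82 and 2.59 TPM and desmin, Des, at 1.05 and 1.05 TPM. The defining genes lay near or at 0. Pdgfrb was at 0.251 and 0.139 TPM, Itga8 at 0 and 0.0117 TPM, Gata3 at 0.0872 and 0.396 TPM and Acta2 at 0.0362 and 0 TPM. The pericyte genes Rgs5, Abcc9 and Kcnj8 and the angiotensin receptor Agtr1a were listed at 0 in both libraries. The list summed to 56.5 and 63.2 TPM, mostly Fhl2.

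Epithelial genes stood higher. Of 22 epithelial adhesion and keratin genes, 17 reached 1 TPM and 12 reached 10 TPM. The simple epithelial keratins were at 454 and 659 TPM for Krt18, 70.02 and 109 TPM for Krt8, 60.9 and 86.99 TPM for Krt7 and 25.04 and 63.01 TPM for Krt19. Cdh16, the kidney-specific cadherin of tubule epithelium, was at 126 and 147 TPM and the junction protein plakoglobin, Jup, at 121 and 114 TPM. The epithelial adhesion molecule Epcam was at 26.9 and 52.4 TPM and the epithelial splicing factor Esrp1 at 8.84 and 16.8 TPM. E-cadherin, Cdh1, was much lower at 1.78 and 4.997 TPM, and N-cadherin, Cdh2, was at 19.8 and 21.7 TPM. Keratins thus stood beside the mesenchymal filament vimentin, Vim, at 848 and 794 TPM.

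Of 12 nephron progenitor markers 6 reached 1 TPM, against 55.2% of protein-coding genes. Pax8, which with Pax2 specifies the kidney lineage, was at 75.5 and 68.3 TPM, a mean of 71.9 ± 5.15 TPM (SD, n = 2), and Pax2 at 18.7 and 13.3 TPM. Emx2, needed in the early urogenital tract, was at 12.2 and 14.2 TPM. The progenitor gene Sall1 was at 7.27 and 8.84 TPM, while Six2 and Osr1 were at 0 and 0.0384 TPM and 0 and 0.0370 TPM. Pax8, Pax2, Emx2 and Sall1 were above 1 TPM in both libraries, and the self-renewing progenitor marker Six2 was not.

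Genes of mature nephron segments were mostly near 0. Of 14 proximal tubule markers 3 reached 1 TPM, among them the injury marker Havcr1 at 7.33 and 13.9 TPM and the endocytic receptor Lrp2 at 2.68 and 1.11 TPM. The transporters Slc34a1, Slc5a2 and Slc22a6 were listed at 0 in both libraries, as were Umod of the thick limb and Aqp2 of the collecting duct. The collecting duct list had 4 of 12 members at 1 TPM or more, led by the water channel Aqp3 at 11.1 and 9.91 TPM and the steroid enzyme Hsd11b2 at 3.46 and 5.34 TPM.

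Podocyte genes split in the same way. Of 15 such genes 7 reached 1 TPM, but the highest, the actin linker Actn4 at 229 and 249 TPM and the adaptor Cd2ap at 109 and 115 TPM, are also widely expressed. Nes was at 63.4 and 86.3 TPM. The slit diaphragm genes differed, with Kirrel1 at 25.8 and 25.3 TPM and Nphs1 at 0.116 and 0.116 TPM. The podocyte factor Wt1 was at 0 and 0.0945 TPM. Renin, Ren1, was listed at 0 in both libraries.

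Of 20 fibroblast markers 4 reached 1 TPM. They were the calcium-binding genes S100a6 at 1862 and 2075 TPM and S100a4 at 159 and 115 TPM, Vim, and the matrix gene Fbln1 at 21.3 and 18.6 TPM. Col1a1 was at 0.854 and 0.264 TPM, Pdgfra at 0.0494 and 0.0104 TPM, and Col3a1, Dcn and Lum were listed at 0. Of 16 endothelial markers 1 reached 1 TPM, the receptor Flt1 at 1.80 and 1.81 TPM, and Cdh5 was at 0.0173 and 0.0349 TPM. None of 10 pluripotency genes reached 1 TPM.

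A few genes of blood cells were on without the rest of their program. The myeloid factor Spi1 was at 11.2 and 11.3 TPM, its target Csf1r, the receptor for colony-stimulating factor 1, at 7.41 and 6.58 TPM, the endotoxin co-receptor Cd14 at 10.5 and 12.5 TPM and the lysosomal gene Cd68 at 5.92 and 12.3 TPM. The pan-leukocyte gene Ptprc was at 0.0148 and 0.0449 TPM, Itgam at 0 and 0.0212 TPM, and Adgre1, Lyz2 and Tyrobp were listed at 0. Genes on the Y chromosome were detected, with Eif2s3y at 73.6 and 61.1 TPM, Ddx3y at 28.8 and 27.3 TPM, Kdm5d at 11.7 and 11.4 TPM and Uty at 9.55 and 8.99 TPM. Xist, the X inactivation RNA, was at 0 and 0.00738 TPM.

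The EV libraries thus went against the mesangial label on its usual markers, and they are called EV libraries below.

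**Figure D1:**
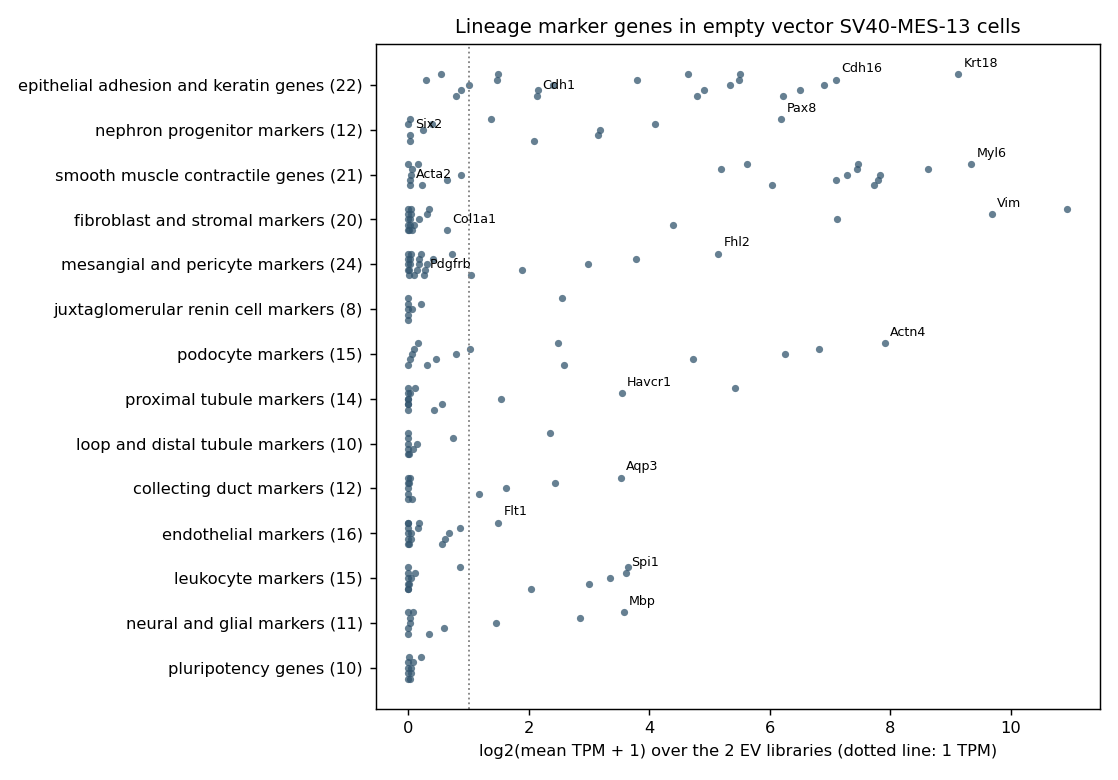
Mean level over the 2 EV libraries, as log2(mean TPM + 1), of every member of 14 lineage lists (list size in parentheses; each point is 1 gene, spread vertically only for legibility). Keratin and adhesion genes such as Krt18 and Cdh16 and the kidney factor Pax8 lie well to the right of the dotted line at 1 TPM, whereas Pdgfrb, Acta2 and Six2 lie at the left edge.

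Smooth muscle genes were divided. Of 21 contractile genes 12 reached 1 TPM, and all 12 also reached 10 TPM. They included forms found in many cell types, such as the myosin light chain Myl6 at 665 and 637 TPM, the tropomyosins Tpm4 at 388 and 402 TPM and Tpm1 at 241 and 215 TPM, caldesmon, Cald1, at 215 and 227 TPM and calponin 3, Cnn3, at 225 and 195 TPM. Smoothelin, Smtn, a smooth muscle protein, was also among them at 128 and 145 TPM. Other smooth muscle genes were near 0, with Tagln at 0.650 and 0.485 TPM, calponin 1, Cnn1, at 0.264 and 0.0613 TPM, Myl9 at 0 and 0.223 TPM and Myh11 at 0 and 0.0421 TPM. Myocd, the coactivator that drives smooth muscle genes, was at 0 and 0.0200 TPM. Its relatives Mrtfa at 17.1 and 17.7 TPM and Mrtfb at 11.7 and 10.7 TPM and their partner Srf at 38.5 and 43.3 TPM were on. The cytoplasmic actins Actb and Actg1 were at 1479 and 1582 TPM and 1098 and 1760.2 TPM, so Actb was the higher in replicate 1 and Actg1 in replicate 2.

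Abundance was uneven across rows. The 10 most abundant rows held 7.29% and 6.30% of all TPM, the 100 most abundant 27.7% and 27.4%, and the 1000 most abundant 63.0% in each. The top coding gene was the elongation factor Eef1a1 at 8677 and 8927 TPM. Of the top 30 rows 19, and of the top 100 rows 51, were cytosolic ribosomal protein genes, led by Rps2 at 5979 and 6079 TPM and Rpl23a at 5327 and 5538 TPM. Together the 83 genes of that class held 15.4% and 15.9% of TPM. Other coding genes in the top 30 included the histone-binding prothymosin Ptma at 5045 and 4063 TPM, the chaperone Hsp90ab1 at 3759 and 3875 TPM, ferritin heavy chain, Fth1, at 2601 and 4202 TPM and the growth-related protein Tpt1 at 2961 and 2753 TPM. The 13 mitochondrially encoded mRNAs held 1.16% and 0.860% of TPM.

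Of the top 30 rows 5 were not coding genes in RefSeq. The highest row of all was the predicted model Gm48274 at 25366 and 15662 TPM, followed among these by Mir6236 at 4690.2 and 4779.6 TPM and the models Gm10275 at 3557 and 4250.4 TPM, Gm28437 at 3447 and 3492 TPM and Gm15500 at 2785 and 2887 TPM. Mir6236 is annotated as a microRNA locus at chr9:110281353-110281371 on the plus strand of GRCm38.p6 for its mature form. The mature sequence of 19 bases from RefSeq is shown to identify the row, with the seed (bases 2 to 8) in capitals. A library of poly(A) RNA does not measure the mature microRNA, and TPM are scaled by length, which makes the value of a short locus hard to set beside that of an mRNA.
mmu-miR-6236: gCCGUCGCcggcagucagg

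Copies that share sequence share reads. At a mean of 1 TPM or more, 65 rows in 27 sets had the same TPM as another row in both libraries. The ferritin light chain gene Ftl1 was listed at 8.50 and 7.51 TPM and its processed copy Ftl1-ps2 at 1204 and 1350.5 TPM. How the authors' quantification split such reads is not given in the sources used here, so single ribosomal protein, ferritin and mitochondrially encoded values are uncertain.

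Of 508 transcription factor genes on the lists, 295 or 58.1% reached 1 TPM, close to the 55.2% of all protein-coding genes, and 18 reached 100 TPM. The highest were the cold-shock domain proteins Ybx1 at 1169 and 1142 TPM and Ybx3 at 599 and 643 TPM and the chromatin protein Hmga1 at 888 and 1112 TPM. Atf4, which drives the integrated stress response, was at 456 and 465 TPM with a mean of 461 ± 6.64 TPM (SD, n = 2). Its libraries differed little, unlike those of its target Ddit3 at 12.6 and 35.2 TPM.

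AP-1 factors, the Fos and Jun families that answer growth signals, were dominated by Jund at 317 and 293 TPM, followed by Fosl1 at 46.7 and 91.1 TPM and Junb at 70.6 and 58.2 TPM. Jun itself was at 23.8 and 17.8 TPM, and the level of Jund was 13.4 and 16.5 times that of Jun. Among basic helix-loop-helix factors Myc led at 199 and 181 TPM, whereas Mycn was at 0.267 and 0.431 TPM. The sterol factor Srebf2 was at 193 and 183 TPM and the dominant-negative factors Id1 and Id2 at 106 and 148 TPM and 113 and 90.04 TPM. Twist2, a mesenchymal regulator, was at 94.1 and 147 TPM, while its paralog Twist1 was listed at 0 in both. The other inducers of mesenchymal state were lower, with Zeb1 at 11.8 and 8.07 TPM, Snai1 at 3.73 and 2.19 TPM and Snai2 at 0.0366 and 0.0369 TPM.

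Hippo and TGF-beta effectors were present in both libraries. Tead2, a DNA-binding partner of YAP, was at 138 and 106 TPM, Yap1 at 54.02 and 60.8 TPM and its relative Wwtr1 (TAZ) at 39.2 and 45.7 TPM. All 10 genes of the SMAD list reached 1 TPM, with Smad2 at 51.99 and 55.9 TPM and Smad3 at 15.4 and 16.6 TPM, a ratio of 3.38 and 3.36. The NF-kB subunits were at 108 and 114 TPM for Nfkb1, 88.4 and 95.9 TPM for Nfkb2 and 82.2 and 88.3 TPM for Rela.

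Among GATA factors, zinc-finger regulators of lineage, Gata4 alone of 6 reached 1 TPM, at 2.67 and 2.51 TPM. Their cofactors Zfpm2 (FOG2) at 21.7 and 18.4 TPM and Zfpm1 (FOG1) at 10.1 and 8.92 TPM stood above every GATA factor in both libraries. Among nuclear receptors the fatty acid sensor Ppard at 53.6 and 67.6 TPM and the orphan receptor Nr2f6 at 59.9 and 42.4 TPM led. The glucocorticoid receptor Nr3c1 was at 26.7 and 29.03 TPM and the estrogen receptor Esr1 at 0.376 and 0.700 TPM. Hnf4a, the factor of mature proximal tubule, was at 0.159 and 0 TPM.

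HOX genes record position along the body axis, and their clusters differed sharply. In all, 9 of 11 Hoxa genes, 9 of 10 Hoxb genes and 4 of 9 Hoxc genes reached 1 TPM, against none of 9 Hoxd genes. Levels were highest in the middle and posterior paralogs. Hoxb9 was at 59.4 and 51.7 TPM, Hoxb7 at 35.96 and 39.5 TPM, Hoxa9 at 25.7 and 23.4 TPM, Hoxa10 at 23.6 and 15.7 TPM and Hoxc10 at 17.1 and 10.7 TPM. Hoxb13, the most posterior gene of its cluster, was at 16.04 and 9.58 TPM. Hoxa11, which with Hoxd11 acts in kidney formation, was at 0 and 0.0353 TPM, and Hoxd11 was listed at 0 in both.

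**Figure D2:**
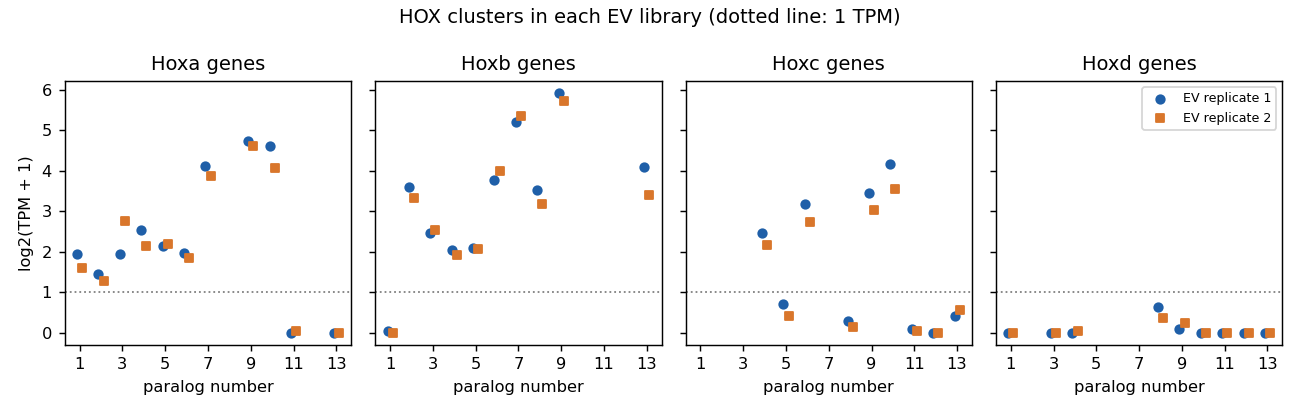
Level of each HOX gene as log2(TPM + 1) in EV replicate 1 (blue circles) and EV replicate 2 (orange squares), by paralog number, in 4 panels for the A, B, C and D clusters. Hoxb9 is the highest gene, Hoxa11 lies at the bottom between an active Hoxa10 and Hoxa13 at 0, and no Hoxd gene passes the dotted line at 1 TPM.

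Genes of the dividing cell were expressed throughout the cycle. All 35 S phase genes and all 51 G2 and mitosis genes reached 10 TPM, for example the replication clamp Pcna at 599 and 567 TPM, the helicase subunit Mcm7 at 373 and 338 TPM, the mitotic kinase Cdk1 at 414 and 433 TPM, cyclin B1, Ccnb1, at 226 and 202 TPM and the topoisomerase Top2a at 339 and 285 TPM. SV40 large T antigen binds p53 and the RB proteins, and both arms were expressed. Trp53 was at 254 and 274 TPM and Rb1 at 12.8 and 11.8 TPM. Cdkn2a, the locus of the p16 and ARF inhibitors that stop division in normal cells, was at 299.8 and 256 TPM. All 28 p53 target genes on the list reached 1 TPM, among them Bax at 222 and 253 TPM, Cdkn1a at 82.1 and 135 TPM and Mdm2 at 55.5 and 63.9 TPM. Cyclin D1, Ccnd1, was at 52.3 and 77.4 TPM and D3, Ccnd3, at 105 and 163 TPM, whereas D2, Ccnd2, was at 0.0990 and 0.594 TPM. The telomerase subunit Tert was at 3.07 and 1.78 TPM. Replication-dependent histone mRNAs mostly lack a poly(A) tail, and 14 of 53 reached 1 TPM in these poly(A) libraries.

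Of 402 receptor and surface genes 181 or 45.0% reached 1 TPM, against 55.2% of protein-coding genes. Tnfrsf12a, the receptor for TWEAK, was at 378 and 420.4 TPM. The integrin chains Itgb1 at 315 and 322 TPM, Itga3 at 116 and 182 TPM, Itga6 at 43.6 and 78.1 TPM and Itgav at 43.3 and 52.1 TPM led their family, which binds laminin, fibronectin and other matrix. The tetraspanins Cd63 at 676 and 708 TPM, Cd9 at 232 and 263 TPM and Cd81 at 163 and 175 TPM and the immunoglobulin protein Bsg at 511 and 567 TPM were among the most abundant surface genes. The hyaluronan receptor Cd44 was at 87.2 and 141 TPM and the urokinase receptor Plaur at 73.8 and 134 TPM, both higher in replicate 2.

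Among 55 receptor tyrosine kinases 24 or 43.6% reached 1 TPM, against 55.2% of protein-coding genes. Axl, which binds the ligands Gas6 and Pros1, was the highest at 162 and 227 TPM. The collagen receptors Ddr1 and Ddr2 were at 109 and 98.9 TPM and 46.2 and 45.6 TPM, the ephrin receptor Epha2 at 50.2 and 84.3 TPM, the hepatocyte growth factor receptor Met at 35.1 and 40.9 TPM and the epidermal growth factor receptor Egfr at 21.3 and 22.8 TPM. The insulin receptor Insr was at 11.1 and 10.9 TPM and Igf1r at 7.24 and 8.52 TPM. Pdgfra and Kdr were at 0.0494 and 0.0104 TPM and 0.114 and 0.115 TPM.

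Vasoactive receptors, through which mesangial cells contract, were sparse. Of 75 G protein-coupled receptors for vasoactive and lipid ligands 14 or 18.7% reached 1 TPM, against 55.2% of protein-coding genes. Of the 75, 29 were listed at 0 in both libraries. The thrombin receptor F2r was the highest at 86.8 and 80.99 TPM, followed by the protease receptor F2rl1 at 31.9 and 48.3 TPM, the lysophosphatidic acid receptor Lpar2 at 20.7 and 21.01 TPM and the adenosine receptor Adora1 at 11.7 and 25.7 TPM. The endothelin receptor Ednra was at 0.0192 and 0 TPM, and Agtr1a, Agtr1b, Ednrb and the vasopressin receptor Avpr1a were listed at 0. Natriuretic peptide receptor 1, Npr1, was at 1.37 and 1.32 TPM.

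Immune receptors were uneven. The interferon receptor chains Ifnar1 and Ifnar2 were at 32.4 and 24.97 TPM and 42.9 and 39.3 TPM and the interferon gamma chains Ifngr1 and Ifngr2 at 42.6 and 28.8 TPM and 32.5 and 27.5 TPM. The interleukin 6 co-receptor Il6st was at 38.3 and 38.05 TPM, and Il17rc at 50.9 and 52.02 TPM. Of 12 Toll-like receptors 5 reached 1 TPM, led by Tlr2 at 25.4 and 46.7 TPM, the double-stranded RNA sensor Tlr3 at 6.96 and 25.7 TPM and Tlr4 at 7.20 and 12.5 TPM. Among 23 chemokine receptors 1 did, Ccrl2 at 0.406 and 1.87 TPM.

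The TGF-beta receptor Tgfbr2 was at 61.2 and 76.8 TPM and its partner Tgfbr1 at 5.85 and 6.63 TPM, and the BMP receptor Bmpr1a at 38.7 and 36.2 TPM. Notch1 and Notch2 were at 22.1 and 21.9 TPM and 12.7 and 15.9 TPM, whereas Notch3, the form of vascular mural cells, was at 0.657 and 0.661 TPM. The Wnt receptor Fzd6 was at 48.2 and 53.1 TPM and its co-receptor Lrp5 at 33.9 and 32.1 TPM. The semaphorin receptor Plxnb2 was at 165 and 180.1 TPM and the transferrin receptor Tfrc at 142 and 193 TPM.

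**Figure D3:**
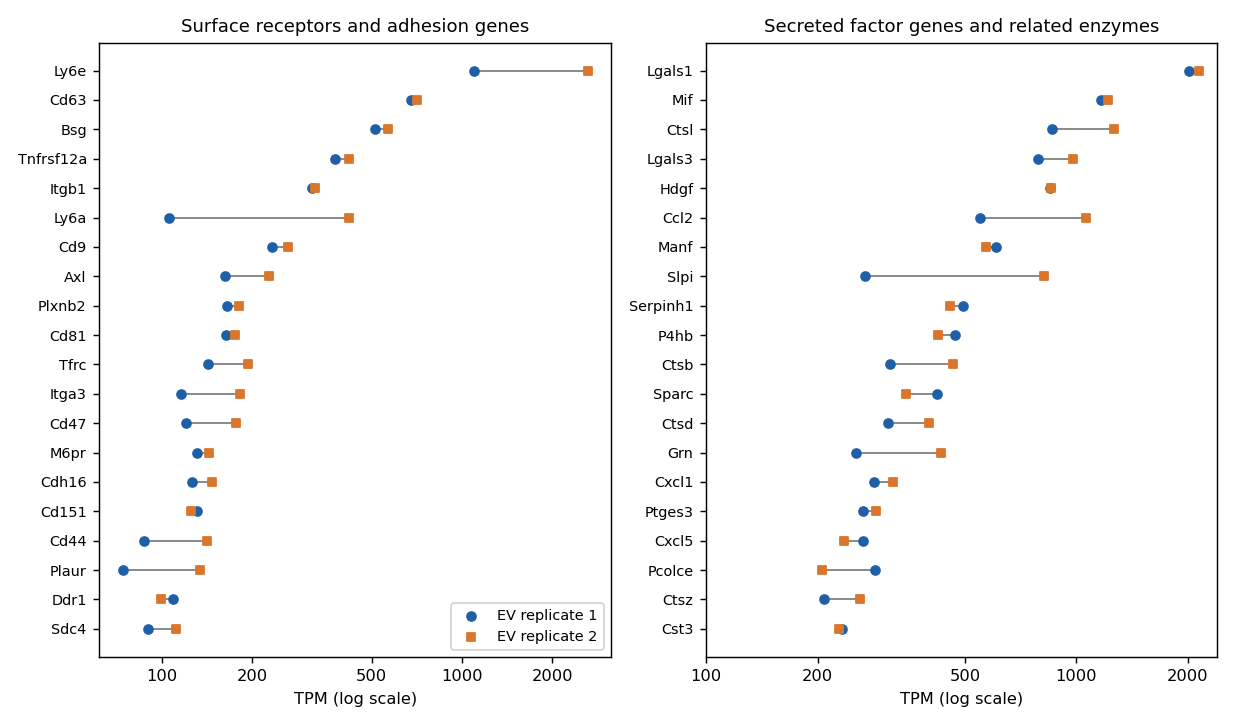
The 20 most abundant listed surface genes (left) and secreted factor genes (right) with the TPM of EV replicate 1 (blue circles) and EV replicate 2 (orange squares) on a log axis, joined by a line. Most points of a gene lie close together, and Ly6e, Ly6a, Ccl2 and Slpi are the widest apart, all higher in replicate 2.

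Of 533 secreted factor and matrix genes 203 or 38.1% reached 1 TPM, below the 55.2% of protein-coding genes, and 128 were listed at 0 in both. The galectins Lgals1 at 2020.0 and 2138 TPM and Lgals3 at 789 and 979 TPM, the cytokine Mif at 1164 and 1218 TPM and the lysosomal protease Ctsl at 858 and 1267 TPM were highest. Of 37 chemokines 15 or 40.5% reached 1 TPM, below the share of all protein-coding genes. The monocyte attractant Ccl2 was at 550.0 and 1063 TPM and the neutrophil attractants Cxcl1 and Cxcl5 at 284 and 319.8 TPM and 265 and 236 TPM, while Cxcl12 was listed at 0 in both. The acute phase gene Saa3 at 206 and 393 TPM, complement C3 at 137 and 128 TPM and lipocalin 2, Lcn2, at 154 and 95.8 TPM accompanied them. The adhesion ligands Icam1 and Vcam1, which answer the same inflammatory signals in many cells, were at 0.0331 and 0.162 TPM and 1.90 and 0.783 TPM.

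Growth factors were led by Hdgf at 851 and 855 TPM, the neurotrophic factor Manf at 606 and 568 TPM, progranulin, Grn, at 254 and 430.3 TPM and the matricellular factor Ccn1 at 206 and 60.3 TPM. The vascular growth factors Vegfb and Vegfa were at 92.8 and 91.6 TPM and 38.3 and 33.4 TPM, and colony-stimulating factor 1, Csf1, was at 40.5 and 60.8 TPM. Within the TGF-beta family Tgfb1 was at 63.9 and 68.4 TPM, Tgfb2 at 1.36 and 1.15 TPM and Gdf15, a stress-induced member, at 68.8 and 43.2 TPM. The Wnt ligands above 10 TPM were Wnt7b at 32.9 and 39.4 TPM and Wnt10a at 15.1 and 18.9 TPM. Among Notch ligands Jag2 at 56.5 and 53.4 TPM stood 22.8 and 21.4 times above Jag1. The interleukin 10 family member Il24 was at 38.99 and 83.5 TPM and the interleukin 1 antagonist Il1rn at 26.6 and 35.96 TPM. Interleukin 6, Il6, was at 0.162 and 1.39 TPM and Tnf was listed at 0.

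Of 44 collagens 9 or 20.5% reached 1 TPM, against 55.2% of protein-coding genes. They were led by Col18a1 at 118 and 112 TPM, Col5a1 at 26.1 and 19.4 TPM and Col4a5 at 16.9 and 11.99 TPM. The widespread collagen IV chains Col4a1 and Col4a2 were at 0.493 and 1.06 TPM and 0.483 and 0.681 TPM, and Col1a1 and Col1a2 at 0.854 and 0.264 TPM and 0.0761 and 0.171 TPM. Of 19 laminin and basement membrane genes 11 or 57.9% reached 1 TPM, close to the share of protein-coding genes. The chains of the epithelial laminin that anchors cells to basement membrane included Lamb3 at 59.9 and 74.9 TPM and Lama3 at 1.14 and 4.22 TPM. Other chains were at 59.3 and 75.7 TPM for Lamc1, 54.5 and 74.1 TPM for Lamb1 and 46.8 and 48.8 TPM for Lama5. Sparc was at 421 and 347 TPM, osteopontin, Spp1, at 79.9 and 78.9 TPM and fibronectin, Fn1, at 50.9 and 46.5 TPM. Of 20 genes for collagen processing 16 or 80% reached 1 TPM, above the share of protein-coding genes. They were led by the collagen chaperone Serpinh1 at 495 and 455 TPM and P4hb at 471 and 423 TPM. The crosslinking enzyme Lox was at 0.115 and 0.291 TPM and its relative Loxl2 at 60.02 and 38.7 TPM.

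Ligands and their receptors were set side by side as levels, without a measure of signalling. Pdgfb was at 26.2 and 21.1 TPM where Pdgfrb was at 0.251 and 0.139 TPM. Ccl2 stood beside its receptor Ccr2 at 0 and 0.0168 TPM and Csf3 at 15.9 and 32.6 TPM beside Csf3r listed at 0. In these cases the ligand was expressed and the receptor was not above 1 TPM.
Met was expressed and its ligand Hgf was listed at 0. Both sides were above 1 TPM for Csf1 and Csf1r, for Tgfb1 and Tgfbr2, for Jag2 and Notch1, for the TWEAK gene Tnfsf12 at 18.8 and 10.000 TPM and Tnfrsf12a, and for Pros1 at 11.9 and 12.4 TPM and Axl. Gas6, the other Axl ligand, was at 0.338 and 0.312 TPM.

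The microRNA pathway of these controls was expressed. Drosha, the nuclear RNase that the shRNAs sh5 and sh7 target, was at 60.03 and 56.4 TPM, its partner Dgcr8 at 26.7 and 26.3 TPM, Dicer1 at 22.3 and 26.2 TPM and Ago2 at 17.3 and 15.7 TPM.

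Promoter composition went along with level. Over 250 bases before to 50 bases after the start, from RefSeq (GRCm38.p6), the ratio of observed to expected CpG dinucleotides had a median of 0.209 in 3844 coding genes listed at 0 in both libraries, 0.357 in 3108 genes above 0 but under 1 TPM, 0.703 in 2199 genes at 1 to 10 TPM, 0.804 in 5277 genes at 10 to 100 TPM and 0.841 in 1352 genes at 100 TPM or more. The share with a ratio of at least 0.6 went from 14.2% to 83.6% across these groups. Genes are not independent replicates and no test was made.

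The EV libraries were close for most genes. Across the 12578 genes whose mean was 1 TPM or more their log2(TPM + 1) correlated at r = 0.965 (across genes, which are not replicates), and 64.1% lay within 1.2-fold. The 15 steadiest genes above 100 TPM included the splicing kinase Srpk1 at 116 and 116 TPM, the poly(A) polymerase Papola at 134 and 134 TPM, the purine salvage enzyme Hprt1, often used as a reference gene, at 131 and 131 TPM, and the mitochondrial chaperonin Hspd1 at 698 and 698 TPM. With 1 library on each side there is no error term, so differences between the libraries are described by their size and no p-value is given. On the log2(TPM + 1) scale 396 genes or 3.15% were more than 2-fold higher in replicate 2 and 226 or 1.8% more than 2-fold lower, 4.95% in either direction. Differences were concentrated in low genes, at 13.5% of genes from 1 to 5 TPM and 1.69% of those at 100 TPM or more. From these libraries it cannot be told which of them is the less typical of the line. In bulk RNA, more cells of a kind and more RNA per cell cannot be told apart.

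**Figure D4:**
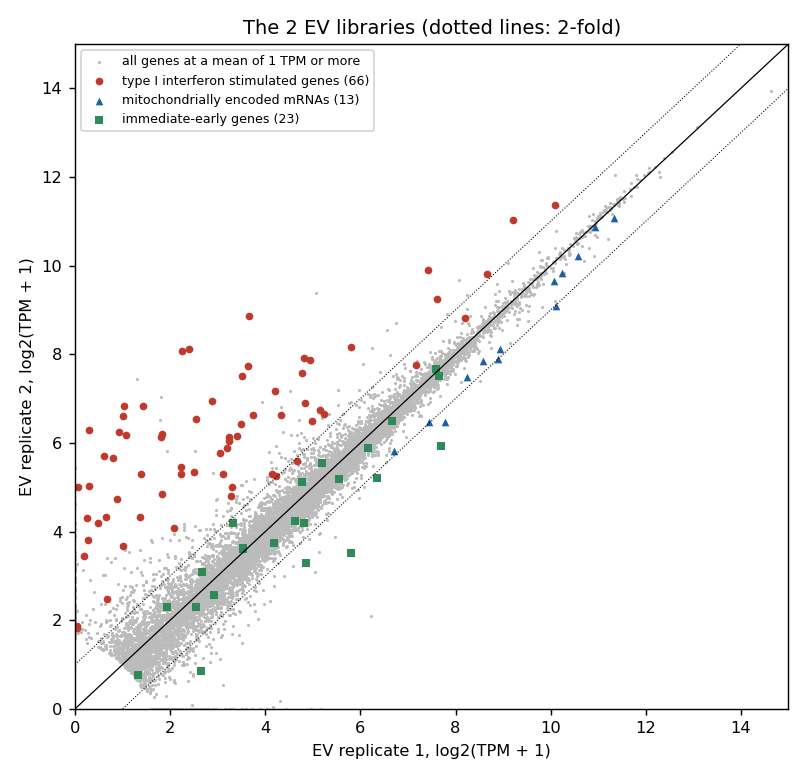
Level of each of the 12578 genes at a mean of 1 TPM or more in EV replicate 1 (horizontal) and EV replicate 2 (vertical), as log2(TPM + 1), with the line of equality and dotted lines at 2-fold. Most genes follow the diagonal, and 63 of 66 type I interferon stimulated genes (red circles) lie above the upper dotted line, while mitochondrially encoded mRNAs (blue triangles) lie below the diagonal.

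Type I interferon stimulated genes had the largest median difference of the 83 lists described, which were chosen with earlier results of these data known. Interferons alpha and beta signal through Ifnar1 and Ifnar2 to transcription factors such as Stat2 and Irf9, which switch on antiviral genes. Of 72 listed genes 66 had a mean of at least 1 TPM, and 63 of these were more than 2-fold higher in replicate 2, where the share over all genes was 3.15%. The median log2 difference was 2.93, against -0.05 over all 12578 genes, and the list summed to 3436 TPM in replicate 1 and 12947 TPM in replicate 2. The other three, Psme1, Psme2 and Samd9l, were also higher in replicate 2. Members of the list made up 63 of the 396 genes.

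By role, the transcription factors Irf7, Stat2 and Irf9 were at 3.77 and 269 TPM, 7.63 and 38.1 TPM and 8.17 and 58.03 TPM. The ubiquitin-like modifier Isg15 was at 11.6 and 463 TPM and its protease Usp18 at 1.70 and 113 TPM. Sensors of viral RNA were at 4.69 and 39.5 TPM for Ifih1 and 8.47 and 69.2 TPM for Rigi. All of these were low in replicate 1 and higher in replicate 2.
The oligoadenylate synthetase family was at 1.02 and 96.9 TPM for Oas3 and 11.3 and 210.4 TPM for Oas1a, and the translation-blocking Ifit1 at 1.10 and 70.9 TPM. Genes of antigen presentation differed in level. B2m at 594 and 2072 TPM and H2-K1 at 406 and 899.8 TPM were already abundant in replicate 1. Tap1 at 7.23 and 53.5 TPM and Psmb8 at 17.3 and 144 TPM were much lower there. The ratio between libraries was 3.49 for B2m, 7.40 for Tap1, 8.29 for Psmb8 and 40.0 for Isg15. Interferon beta itself, Ifnb1, was listed at 0 in replicate 1 and at 0.783 TPM in replicate 2, and Ifng and Ifna4 were listed at 0 in both.

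Of the 15 named genes with the largest increase from replicate 1 to replicate 2, 12 were on this list. Of the remaining ones, Apol9a was at 1.47 and 172 TPM and its near-identical paralog Apol9b at 2.50 and 130.3 TPM, so their reads may be shared, and the small nucleolar RNA Snora57 was at 0 and 42.5 TPM. Others on the list were Ifi44 at 0.230 and 77.2 TPM, Rtp4 at 1.03 and 112 TPM, Oasl2 at 4.22 and 276 TPM, Zbp1 at 0.884 and 75.1 TPM, Ifit3 at 0.519 and 51.3 TPM, Sp100 at 0.0374 and 31.1 TPM and Rsad2 at 0.732 and 49.5 TPM.

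Promoters of these genes were searched on both strands, overlaps counted, for GAAA, 2 bases of any kind and GAAA again, the core of the element that the Irf9 complex binds. The letters were found in the windows of 7 of 11 named genes with a promoter entry and of 26 of 53 on the interferon list, or 49.1%, against 3.99% of 27025 genes with a window. The named higher genes overlap the interferon list, so their counts are not separate. None of 9 named genes that were lower in replicate 2 held the letters, too few genes to tell from the 3.99% of all genes. A match is a description of letters and not evidence of binding. For the 4 most abundant named genes that hold it, 130 bases before to 20 after the RefSeq start (GRCm38.p6) are shown in the gene's direction, with the matches in capitals. They show that Isg15 carries 3 overlapping matches and that Apol9a and Apol9b carry the same run of letters on the opposite strand.
Isg15, chr4:156200799-156200948, minus strand: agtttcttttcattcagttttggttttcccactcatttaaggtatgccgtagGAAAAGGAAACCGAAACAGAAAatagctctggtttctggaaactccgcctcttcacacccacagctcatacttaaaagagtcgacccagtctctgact
Apol9a, chr15:77411061-77411210, minus strand: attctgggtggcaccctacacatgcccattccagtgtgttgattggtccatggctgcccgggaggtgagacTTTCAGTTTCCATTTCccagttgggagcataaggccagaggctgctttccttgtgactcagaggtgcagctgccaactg
Apol9b, chr15:77728942-77729091, plus strand: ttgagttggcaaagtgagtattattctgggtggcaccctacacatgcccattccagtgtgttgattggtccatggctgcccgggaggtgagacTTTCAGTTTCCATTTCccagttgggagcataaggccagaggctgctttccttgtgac
Oas3, chr5:120777640-120777789, minus strand: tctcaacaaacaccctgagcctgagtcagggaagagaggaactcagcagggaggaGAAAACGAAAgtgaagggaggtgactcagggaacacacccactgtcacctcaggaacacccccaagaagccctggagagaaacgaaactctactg

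Some surface and secreted genes were also more than 2-fold higher in replicate 2. The surface protein Ly6e, itself on the interferon list, was at 1094 and 2623 TPM, its relative Ly6a at 106 and 419 TPM and Tlr3 at 6.96 and 25.7 TPM. Of 15 chemokines with a mean of at least 1 TPM, 4 were more than 2-fold higher in replicate 2 and 1 more than 2-fold lower. Over all genes these shares were 3.15% and 1.8%. The list median was 0.69, and it was 0.00 with no filter and 0.21 and 0.94 among those averaging 5 and 20 TPM or more. The higher genes among those above 5 TPM were Cxcl10 at 54.4 and 285 TPM and Ccl5 at 12.1 and 94.2 TPM, both T cell attractants, and Ccl2 nearly reached 2-fold. Cxcl10 is a member of both lists.

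Other secreted genes were higher in replicate 2 as well. In all 17 of 203 secreted genes were more than 2-fold higher and 7 more than 2-fold lower, against 3.15% and 1.8% of all genes. The protease inhibitor Slpi was at 268 and 816 TPM, the plasminogen activator Plat at 61.6 and 146 TPM, tissue factor, F3, at 23.4 and 55.6 TPM and Il24 at 38.99 and 83.5 TPM. Among growth factors the EGF receptor ligand Areg was at 3.22 and 14.4 TPM. The prostaglandin synthases Ptgs1 and Ptgs2 were at 10.6 and 25.4 TPM and 11.3 and 23.7 TPM. Among receptors the bradykinin receptor Bdkrb2 was at 3.87 and 16.9 TPM and Adora1 was also past 2-fold.

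Epithelial genes leaned the same way. Of 17 with a mean of at least 1 TPM 13 were higher in replicate 2, where 42.6% of all genes were. The list median was 0.54, and 0.28 among the genes averaging 20 TPM or more. Of the 17, 3 were more than 2-fold higher, where the share over all genes was 3.15%. Krt19 and Cdh1 were among the 3, and Epcam and Krt18 were 1.95 and 1.45 times higher as a ratio of TPM. Among transcription factors the stress factor Ddit3 was past 2-fold, as was the chromatin protein Hmga2 at 16.5 and 46.1 TPM, and so was the cystine transporter Slc7a11 at 3.86 and 16.2 TPM among stress and antioxidant genes. Fth1 was 1.62 times higher.

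Fewer genes were more than 2-fold lower than higher in replicate 2, although 57.4% were lower by any amount. Immediate-early genes rise within minutes of a growth signal, and 5 of 23 were more than 2-fold lower, against 1.8% of all genes, with a list median of -0.27. They were Egr1 at 54.9 and 10.4 TPM, Ccn1 at 206 and 60.3 TPM, the phosphatase Dusp1 at 27.99 and 8.76 TPM, Ier2 at 80.4 and 35.7 TPM and Fos at 5.28 and 0.818 TPM. By any amount, 8 of the 23 were higher in replicate 2, among them Btg2, a growth-restraining gene, at 8.95 and 17.3 TPM. Ier3 at 193 and 202 TPM and Myc were close in both libraries.

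Mitochondrially encoded mRNAs were lower in replicate 2 for all 13 genes, with a median of -0.76. Of the 13, 3 were more than 2-fold lower, against 1.8% of all genes. COX2 was at 217 and 87.6 TPM, ND1 at 1112 and 542 TPM and COX1 at 1515 and 1181 TPM. ATP6 was at 1077 and 807 TPM, and Atp6-ps, by its name a pseudogene of it, at 1094 and 1356 TPM. Whether reads shared with such copies bear on these values was not tested. Cholesterol synthesis genes were lower for 23 of 26, with a median of -0.28, and G2 and mitosis genes for 48 of 51, with a median of -0.19. For comparison 57.4% of all genes were lower, and no member of either list passed 2-fold. Ribosomal protein genes hardly moved, with medians of 0.04 for the large and 0.07 for the small subunit, and S phase genes had a median of -0.04.

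The 15 named genes with the largest decrease from replicate 1 to replicate 2 were led by the RNase P RNA Rpph1, at 34.9 TPM in replicate 1 and listed at 0 in replicate 2. Besides Egr1, Ccn1 and Dusp1 they included the platelet chemokine Ppbp at 10.4 and 1.80 TPM, the cilium factor Foxj1 at 13.4 and 3.08 TPM, the prostaglandin D synthase Ptgds at 11.4 and 2.71 TPM, the focal adhesion gene Tns1 at 8.90 and 2.21 TPM, the calcium channel Cacna1g at 12.8 and 3.60 TPM and the cilium gene Cys1 at 7.70 and 2.47 TPM. Short noncoding genes appeared among the extremes on both sides, with Snora57 higher and Rpph1, Snord55 at 23.01 and 8.29 TPM, Snord91a at 8.97 and 2.64 TPM and Bc1 at 14.7 and 4.15 TPM lower. Apart from Ccn1, none of these exceeded the 54.9 TPM of Egr1 in either library.

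**Figure D5:**
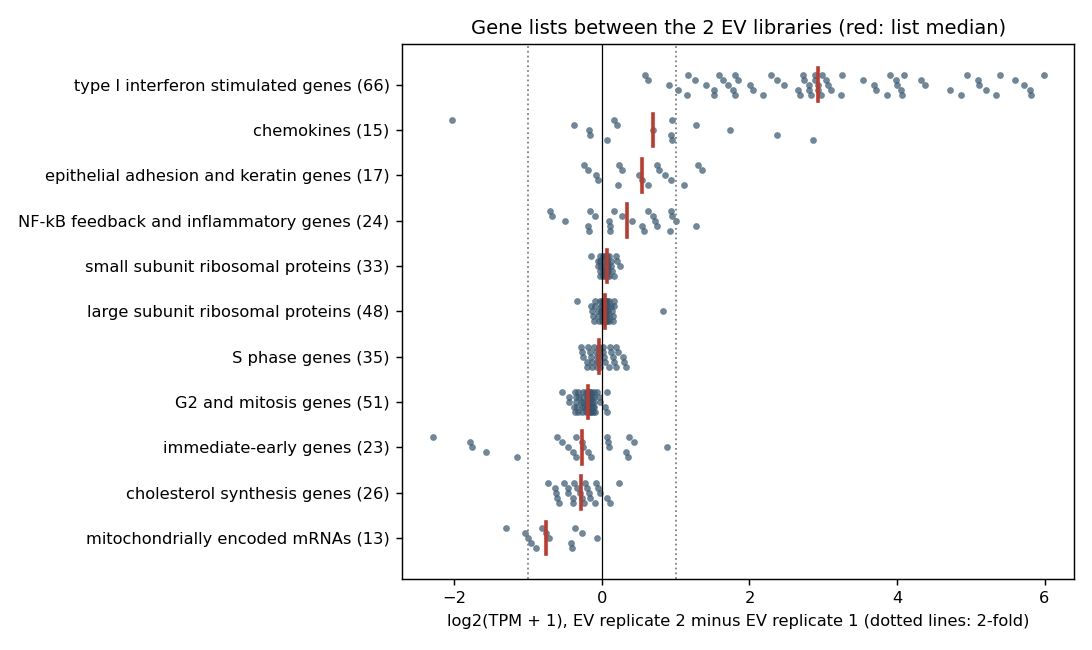
Difference between the EV libraries, replicate 2 minus replicate 1 on the log2(TPM + 1) scale, for each member with a mean of at least 1 TPM (points) of 11 gene lists, with the list median in red and dotted lines at 2-fold. The interferon list lies apart at a median of 2.93, ribosomal protein and S phase genes sit near 0, and the mitochondrially encoded mRNAs lie at -0.76.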

How the data were processed

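The values are gene-level TPM deposited by the authors after quantification with kallisto 0.48.0, according to the submitters' processing notes. No build or annotation is named, and how transcripts became genes is not given in the sources at hand. The labels' protocols name oligo(dT) selection of mRNA. Each library sums to 1000000 TPM, which keeps no read depth, so no counting interval or detection floor was derived and the number of reads limits precision to an unknown degree. Reads shared with pseudogenes or copies may be split in ways that raise or lower single rows.

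Of 22339 rows with no symbol in the deposited table, 19991 were named from a RefSeq-based reference table (52081 IDs matched). For a symbol on several rows the highest was used. Between the EV libraries, log2(TPM + 1) was compared among genes averaging 1 TPM or more, and more than 2-fold was the threshold. With 1 library a side there is no test. Some genes that meet the rules below are not reported. Calculations used Python 3.11.15, numpy 2.4.6 and pandas 2.3.3, and the fold count was tested on simulated data. The 83 gene lists were chosen with earlier results of these data known. Named for levels were the 30 most abundant rows, up to 8 genes per list from the highest down, and defining members or paralogs. Named for differences were the 15 genes per direction with the largest difference at a mean of at least 5 TPM, without predicted models and pseudogenes, up to 5 members per list, and the steadiest genes above 100 TPM. A few further genes outside these rules were named after their values were seen. Alternatives tried were pseudocounts, filters, scalings, fold thresholds and each library alone.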

Additional observations from a re-analysis of the deposited data

How the results depend on the processing

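Levels and differences rest on 2 libraries of 1 group, whose read depth is unknown, so low values are the least certain. No paired analysis was possible because the values come from 1 group and no test was made. The count of genes at 1 TPM or more was within 1.5-fold of 11959 under every setting tried, and in single libraries it was 12507 and 12675. The share of TPM in the 100 most abundant genes was 22.3% when rescaled without mitochondrially encoded genes and the 20 most abundant genes, and 27.5% to 27.7% in single libraries.

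Counts past the threshold depended on it. Genes higher in replicate 2 numbered 206 and 113 at a mean of at least 5 and 20 TPM, and 823 and 115 at 1.5-fold and 4-fold. Genes lower in replicate 2 numbered 404 with a pseudocount of 0.1, 390 with no filter, 63 and 16 at a mean of at least 5 and 20 TPM, and 723 and 52 at 1.5-fold and 4-fold. In either direction they numbered 940 with a pseudocount of 0.1, 269 and 129 at a mean of at least 5 and 20 TPM, and 1546 and 167 at 1.5-fold and 4-fold. Without the interferon list, an alternative chosen after seeing the data, 333 genes were higher and 226 lower. The scalings left all these counts within 1.5-fold.

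List medians were recomputed for the 11 lists in the plot of list differences and not run for the others. They moved by over 0.1 as follows. The interferon list was at 3.24 with a pseudocount of 0.1. Epithelial genes were at 0.39 and 0.28 at a mean of at least 5 and 20 TPM. Chemokines were at 0.00 with no filter and at 0.21 and 0.94 at those means. NF-kB feedback genes, at 0.34 in the main setting, were at 0.22 at a mean of at least 20 TPM. With a smaller move, S phase genes changed sign from -0.04 to 0.00548 under median-of-ratios scaling. The cause of these shifts was not tested. Myl12b, on more than 1 row, was at 771 TPM on its highest row and at 1080.0 TPM summed over its rows.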
